A study of Caenorhabditis elegans with 2 samples.

Results

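The genes described here are 10 transcription regulators of the Caenorhabditis elegans hypodermis and seam, lin-26, elt-1, elt-3, elt-6, egl-18, ceh-16, rnt-1, blmp-1, bed-3 and skn-1, out of 19973 annotated protein-coding genes. They were chosen by name for their known roles, with earlier results of these data known. Each was described by the summits of the transcription factor GRH-1 in the gene and within 5000 bp of it. The binding data came from chromatin immunoprecipitation and sequencing (ChIP-seq) of whole L1 larvae of strain RW12208, whose grh-1 gene carries TY1, EGFP and 3xFLAG tags inserted by CRISPR. The larvae were 6 h old and had been synchronised by bleaching and starvation, and there was 1 group with 2 biological replicates, so no treatment, genotype or stage could be compared. All animals expressed the tagged protein, which was precipitated with an antibody against GFP according to the description of the samples, while their antibody field gives grh-1. What was compared is each gene with the other genes of the genome and replicate 1 with replicate 2.

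GRH-1 is the C. elegans member of the Grainyhead family, DNA-binding proteins that shape and maintain epithelia, above all the epidermis, across the animal kingdom and that recognise sites built around AACCGGTT. The worm epidermis consists of the large hypodermal syncytium and the lateral seam cells, which divide in a stem-cell-like manner during the larval stages, and its fates are set by a cascade of transcription factors. ELT-1 and LIN-26 act early in that cascade, ELT-3 in hypodermal cells, and ELT-6, EGL-18, CEH-16 and RNT-1 in the seam, while SKN-1 is better known for specifying endomesoderm in the embryo and for the response to oxidative stress.

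The sequences under thresholded summits of lin-26, egl-18, elt-6 and skn-1 are shown because none of these 5 windows holds a Grainyhead-type site, while 4 of them hold other short motifs. The window of the lower pooled lin-26 summit, at position 7679770, is not shown and holds no Grainyhead-type site either. Each window runs 100 bp to either side of a summit, read 5′ to 3′ on the + strand of ce11. Capitals mark any of the 9 motifs searched on both strands, with GAGAGA appearing as TCTCTC where it lies on the other strand. No base of these windows is annotated as UTR.
lin-26, chrII:7679463-7679663, none of the motifs: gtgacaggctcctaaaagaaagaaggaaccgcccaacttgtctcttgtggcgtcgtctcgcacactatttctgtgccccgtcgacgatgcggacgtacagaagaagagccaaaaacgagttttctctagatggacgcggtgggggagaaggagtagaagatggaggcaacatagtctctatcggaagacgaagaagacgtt
egl-18, chrIV:1911279-1911479, GATAA and GAGAGA: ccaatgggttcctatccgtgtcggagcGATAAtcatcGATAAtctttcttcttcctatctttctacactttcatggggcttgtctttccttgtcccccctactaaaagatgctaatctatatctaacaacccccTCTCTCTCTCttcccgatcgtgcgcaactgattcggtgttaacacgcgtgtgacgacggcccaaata
elt-6, chrIV:1917843-1918043, GAGAGA and CACGTG: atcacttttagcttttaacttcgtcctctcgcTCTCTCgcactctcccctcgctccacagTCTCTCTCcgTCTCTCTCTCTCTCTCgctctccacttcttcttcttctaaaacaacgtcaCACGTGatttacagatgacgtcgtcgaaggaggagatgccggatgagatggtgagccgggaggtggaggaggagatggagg
skn-1, chrIV:5656024-5656224, GAGAGA and GATAA: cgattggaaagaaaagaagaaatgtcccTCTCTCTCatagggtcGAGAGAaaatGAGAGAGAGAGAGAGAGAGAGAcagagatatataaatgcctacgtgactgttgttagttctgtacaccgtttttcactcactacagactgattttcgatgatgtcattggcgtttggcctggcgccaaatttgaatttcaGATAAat
skn-1, chrIV:5657229-5657429, GAGAGA and AGACGCAG: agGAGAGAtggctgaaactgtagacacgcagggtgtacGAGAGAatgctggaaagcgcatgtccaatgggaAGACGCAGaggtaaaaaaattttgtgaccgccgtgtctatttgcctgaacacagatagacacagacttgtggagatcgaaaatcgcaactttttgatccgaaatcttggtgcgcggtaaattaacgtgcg

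The following sequences are shown because they hold Grainyhead-type sites in the genes' windows that did not lie under a thresholded summit. The ceh-16 sequence is the 130 bases up to the annotated 5′ end of the gene, under its highest ranked peak, and capitals mark ACCGGT. The other sequences are 28 bases around an AACCGGTT palindrome in capitals, upstream of lin-26 and in an intron of bed-3. All are read on the + strand of ce11.
ceh-16, chrIII:8622605-8622734: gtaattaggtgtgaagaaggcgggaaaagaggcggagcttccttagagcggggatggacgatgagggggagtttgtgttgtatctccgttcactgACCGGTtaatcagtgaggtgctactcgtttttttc
lin-26, chrII:7678970-7678997: gtgaagcaagAACCGGTTggcacttgtc
bed-3, chrIV:9918152-9918179: gggggagggaAACCGGTTggtccagtta

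Among the pooled peaks past the reproducibility threshold set by the authors, 5 of the 10 genes had a summit in or within 5000 bp of them, beside 25.1% of all protein-coding genes. These were lin-26, elt-6, egl-18, blmp-1 and skn-1, with 7 summits among them. The conservative pooled list gave the same 5 genes, beside 24.5% of all genes, and 8 summits. In the list of replicate 1, 4 genes had a summit, beside 20.3% of all genes, and in that of replicate 2 it was 3 genes, beside 17.4%. The genes with a summit in all 4 lists were lin-26, blmp-1 and skn-1. No summit of any of the 4 lists was within 5000 bp of elt-1, elt-3, ceh-16, rnt-1 or bed-3.

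In the promoter window from 1000 bp upstream to 200 bp downstream of an annotated 5′ end, 2 of the 10 genes had a pooled summit, elt-6 and skn-1, beside 8.16% of all genes. In the list of replicate 1 skn-1 alone had a promoter summit, beside 6.64% of all genes, and in the list of replicate 2 none of the 10 had, beside 5.54%. The genes' windows were also longer than usual, with a median of 15458 bp against 12027 bp over all genes, and a longer window has more room for a summit. Per length, the joined windows of 159.879 kb held 4.38 pooled summits per 100 kb, beside 2.46 over the 6 chromosomes of the genome. That density rests on 7 summits, 2 of them in overlapping lin-26 peaks, and merging peaks left 6. Summits per length were not computed for the windows of all genes. These shares and densities are descriptions of a list chosen by name with earlier results of these data known, without a test.

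The signal value of a peak is the authors' score, on an unstated scale, and it is comparable within a list only. The number of reads is unknown, so no counting error can be put on a value, and the spread between the 2 replicates is the only error that can be seen. Of the 2470 pooled thresholded summits 2272 (92.0%) had a ranked peak within 100 bp in both replicates, where the median ratio of replicate 2 to replicate 1 was 0.797. Because whole larvae were used, binding in fewer cells and weaker binding in each cell cannot be told apart.

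blmp-1 had the highest signal of the 10 genes. It encodes a zinc finger protein of the PRDM1 (Blimp-1) family that acts in epidermal development and developmental timing. The gene (WBGene00003847, chrI:10409302-10414773, + strand) had a single pooled summit, at position 10407615 of a peak at chrI:10407494-10407758, in intergenic sequence 1687 bp upstream of its 5′ end. The peak scored 590 in the pooled list, rank 140 of 2470 and so within the top 5.67%. Its signal was 309 in replicate 1, rank 161 of 1787, and 269 in replicate 2, rank 136 of 1487. All of the lists thus placed it high, and its −log10 IDR was 5 in each ranked list, where IDR is the irreproducible discovery rate and the threshold corresponds to a value of 2. No other pooled summit lay closer than 6824 bp. It was also the only one of the 7 pooled summits with a Grainyhead-type site within 100 bp, an ACCGGT whose centre lay 17.5 bp from the summit. The other ranked peaks around blmp-1 were far lower, the next being 68.0, 65.0 and 55.0 in the pooled ranked list.

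lin-26 encodes a zinc finger protein required to specify and maintain epidermal fate. The gene (WBGene00003012, chrII:7682198-7684764, + strand) had its summits upstream, inside the neighbouring gene lir-1, whose annotated 3′ end overlaps the 5′ end of lin-26. The higher summit, at position 7679563 of the peak chrII:7679391-7679734, lay in an intron of lir-1, 1482 bp upstream of the nearest lir-1 5′ end and 2635 bp upstream of lin-26, so it is nearer to lir-1 than to lin-26. Its signal was 203 in the pooled list, rank 729 of 2470. Replicate 1 gave 102, rank 844, and replicate 2 gave 92.0, rank 699. The replicates placed it close together, and its −log10 IDR was between 3.63 and 3.87 in the pooled, conservative and replicate ranked lists. As its sequence shows, its window held none of the 9 motifs.

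The other lin-26 summits did not hold across the lists. A pooled summit at position 7679770, 207 bp from the higher summit and in an overlapping peak, had a signal of 45.9, rank 2371 of 2470. Its ranked signal was 28.1 in replicate 1 and 5.07 in replicate 2. Although its −log10 IDR in the pooled ranked list was 3.72, that of its higher neighbour, it was 0.106 in the conservative ranked list, 0.049 in replicate 1 and 0.025 in replicate 2. It was in no other thresholded list. Its window held 2 GATAA and 1 GAGAGA. The conservative list alone among the pooled lists held another summit in a lir-1 intron, at position 7677973 with a signal of 79.3, and a summit at position 7682702 in a coding exon of lin-26, 227 bp downstream of an annotated 5′ end, with a signal of 80.3. Their ranked signals were 39.8 in replicate 1 and 42.7 in replicate 2 for the intronic summit, and 40.2 and 43.9 for the exonic summit, which also passed the threshold in replicate 2. Thus each of the lists with a lin-26 summit held the summit 2635 bp upstream, and they differed on the rest.

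elt-6 and egl-18 encode GATA factors that maintain seam cell fate, and they lie in tandem 136 bp apart. egl-18 (WBGene00001186, chrIV:1902322-1917840, + strand) spans 15519 bp, mostly introns, and elt-6 (WBGene00001253, chrIV:1917977-1921643, + strand) follows it. A summit at position 1917943, in the peak chrIV:1917771-1918114, fell in the gap between them, 34 bp upstream of the elt-6 5′ end. Its signal was 88.9 in the pooled list, rank 1875 of 2470. The matching ranked peaks scored 39.2 in replicate 1 and 42.7 in replicate 2, with a −log10 IDR of 1.46 and 0.575. It therefore passed in the pooled and conservative lists and in neither replicate's own list. Next to the 5′ end of elt-6 its window held 9 copies of GAGAGA on the − strand, 1 by itself and the rest in runs of overlapping copies, and CACGTG with its centre 22.5 bp from the summit.

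Within egl-18 itself, the summit at position 1911379 of the peak chrIV:1911207-1911550 lay in an intron, 2067 bp upstream of an internal 5′ end. It scored 94.1 in the pooled list, rank 1759, and 52.1 in replicate 1, rank 1630 of 1787. In replicate 2 the ranked peak scored 44.3 with a −log10 IDR of 1.43, below the threshold. Both summits of this gene pair were thus among the lower-scoring peaks of their lists. The intronic window held 2 GATAA and 3 overlapping GAGAGA copies. The GATAA core is the one that GATA factors are known to recognise, and it occurred in 34.0% of the windows around all pooled summits and 39.7% of windows of the same length centred 500 bp to either side.

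skn-1 encodes the worm relative of the Nrf transcription factors. The gene (WBGene00004804, chrIV:5651039-5660384, − strand) had 2 pooled summits 1205 bp apart, both in introns and upstream of the internal 5′ end of transcript T19E7.2c.1. The higher one, at position 5657329 of the peak chrIV:5657157-5657500, was 1724 bp upstream of that end and also in an exon of the ncRNA T19E7.26. Its signal was 200.8 in the pooled list, rank 742, 120 in replicate 1, rank 676, and 76.4 in replicate 2, rank 878 of 1487. The lower one, at position 5656124 of the peak chrIV:5655952-5656295, was 519 bp upstream of the same end and accounted for the promoter summit of skn-1. It scored 122 in the pooled list, rank 1294, and 73.9 in replicate 1, rank 1179. In replicate 2 the matching ranked peak scored 44.9, and with a −log10 IDR of 1.16 it did not pass.

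At both skn-1 summits replicate 1 was the higher, and the ratio of replicate 2 to replicate 1 was below the median over the whole list. Replicate 2 had a further thresholded summit at position 5657550, with a signal of 21.1, rank 1447 of 1487, a pooled ranked signal of 7.06 and no ranked peak of replicate 1 within 100 bp. The windows of the 2 pooled summits shared GAGAGA and differed in the rest. That of the lower summit held 12 copies, most of them in a single run, and 1 GATAA, while that of the higher held 2 copies and AGACGCAG with its centre 25.5 bp from the summit.

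**Figure D1:**
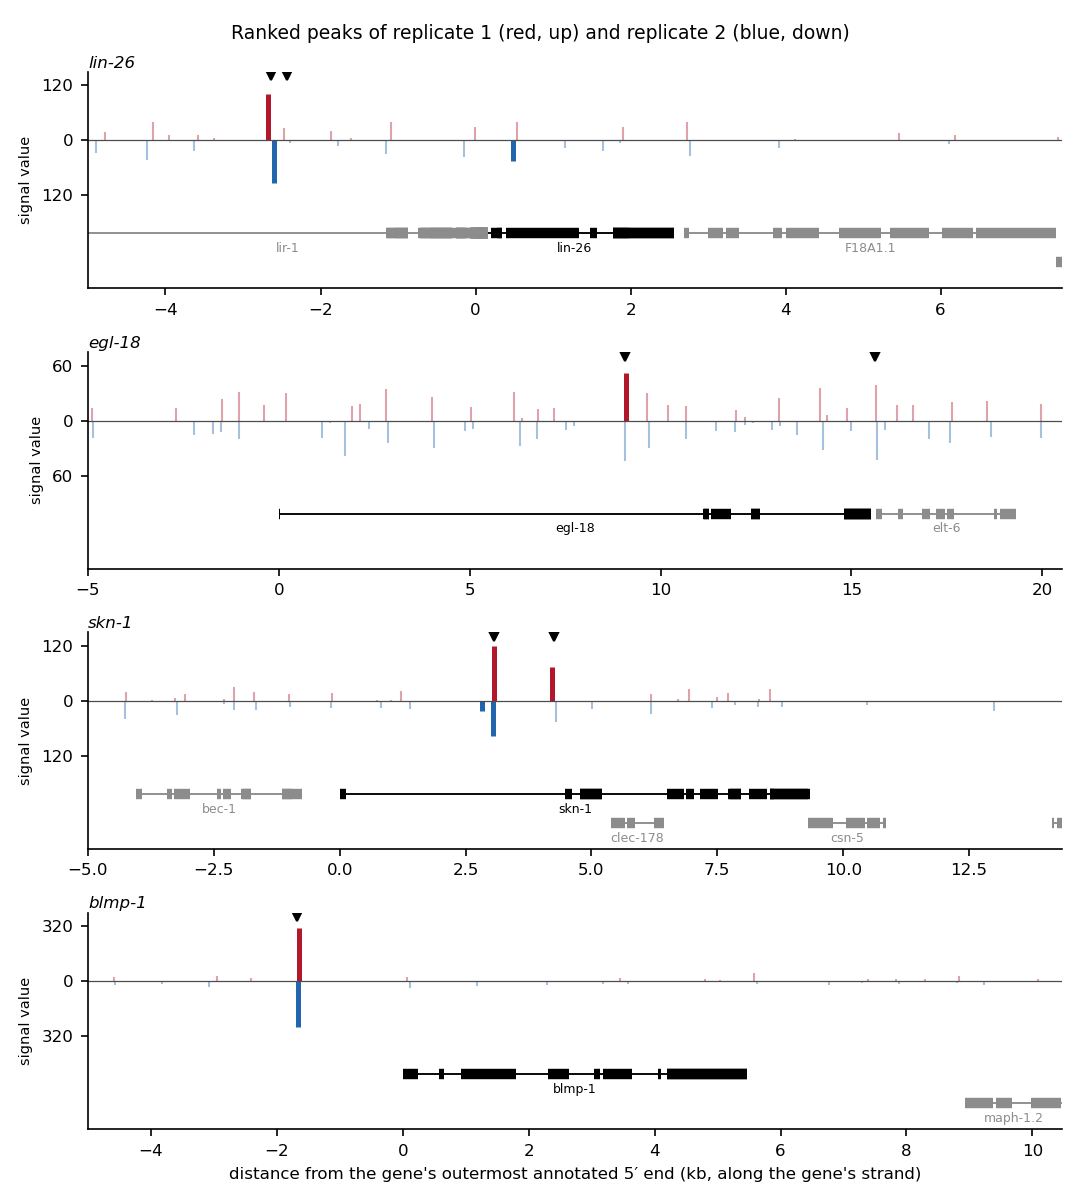
Ranked peaks around lin-26, egl-18 with elt-6, skn-1 and blmp-1 by distance in kb from the gene's outermost 5′ end along its strand, with the signal value of replicate 1 upward in red and of replicate 2 downward in blue. Thick bars are peaks in that replicate's thresholded list, triangles are summits of the pooled thresholded list, and boxes are exons. The blmp-1 peak reached 309 and 269, while the peak 34 bp upstream of elt-6 was thin in both replicates.

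**Figure D2:**
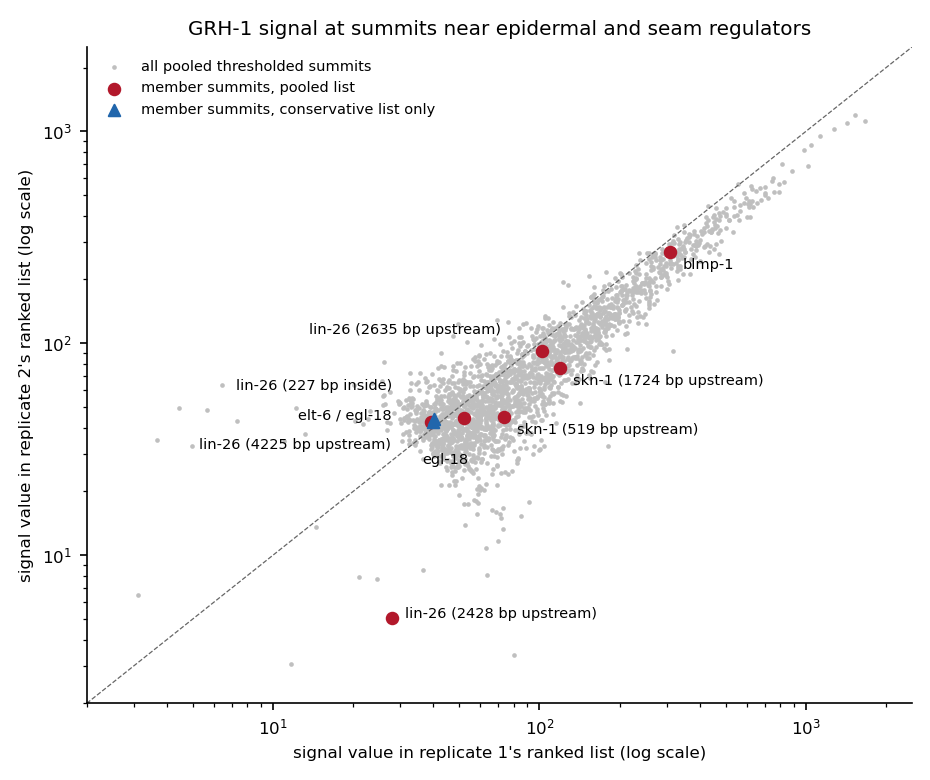
Signal values of the pooled thresholded summits in the ranked lists of replicate 1 (x axis) and replicate 2 (y axis), both on log scales, with the dashed line at equal values. Red points are pooled summits within 5000 bp of the 10 genes. Blue triangles are the lin-26 summits that, among the pooled thresholded lists, were in the conservative list only. Labels in bp give the distance to the 5′ end described in the text. The summit 2428 bp upstream of lin-26 stands apart with 28.1 and 5.07.

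The 5 genes without a thresholded summit were not without peaks, since the ranked lists also hold peaks that did not pass the threshold. For elt-3, which encodes a GATA factor of the hypodermis (WBGene00001251, chrX:13934874-13941216, + strand), an intronic peak 1833 bp upstream of an internal 5′ end scored 70.5 in the pooled ranked list and another, 1010 bp upstream of the same end, 65.9. Their −log10 IDR of 1.88 and 1.898 came close to the threshold. The first had a signal of 41.1 in replicate 1 and no ranked peak within 100 bp in replicate 2. The other had 36.0 in replicate 1 and 39.1 in replicate 2. The nearest thresholded pooled summit was 9689 bp from the gene.

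ceh-16 encodes the engrailed homeodomain protein of the worm, which acts in the seam. Its highest ranked peak (gene WBGene00000439, chrIII:8622735-8626314, + strand) lay 30 bp upstream of the 5′ end, over the ACCGGT shown above. It scored 56.3 in the pooled ranked list and 37.2 in replicate 2, had no ranked peak within 100 bp in replicate 1, and had a −log10 IDR of 0.106. The peak next in signal, in an intron, scored 45.4 in the pooled ranked list, 20.03 in replicate 1 and 31.8 in replicate 2. Within the ranked lists the intronic peak was in the top 32.4% of replicate 1 and the top 6.29% of replicate 2. Neither peak was therefore placed alike by the 2 replicates.

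rnt-1 encodes the worm RUNX factor, which promotes seam cell divisions, and bed-3 a BED zinc finger protein of the epidermis. The highest ranked peak of rnt-1 (WBGene00004393, chrI:5776093-5788611, + strand) was intronic and scored 51.9 in the pooled ranked list, 28.2 in replicate 1 and 30.7 in replicate 2. An AACCGGTT palindrome lay 18 bp from its summit. For bed-3 (WBGene00009133, chrIV:9916524-9921967, + strand) the highest ranked peak was in a coding exon and scored 56.7, with 19.5 in replicate 1 and 29.4 in replicate 2. Its intronic palindrome lay 71 bp from a ranked peak of 45.2, with 23.5 in replicate 1 and 18.7 in replicate 2. All of these were below the median signal of the thresholded lists, which was 127 for the pool, 97.8 for replicate 1 and 87.0 for replicate 2.

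elt-1, the GATA factor that specifies the epidermis in the embryo (WBGene00001249, chrIV:9614995-9620280, + strand), had the lowest top signal of the 10 genes in the pooled ranked list. Its highest ranked peak lay past the end of the gene and scored 47.2, with 19.2 in replicate 1 and 24.95 in replicate 2. A peak 16 bp upstream of an internal 5′ end scored 38.6 in the pooled ranked list, 23.5 in replicate 1 and 22.1 in replicate 2. No pooled thresholded summit lay within 49911 bp of the gene, the largest such distance among the 10, followed by bed-3 with 48453 bp and ceh-16 with 32153 bp.

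**Figure D3:**
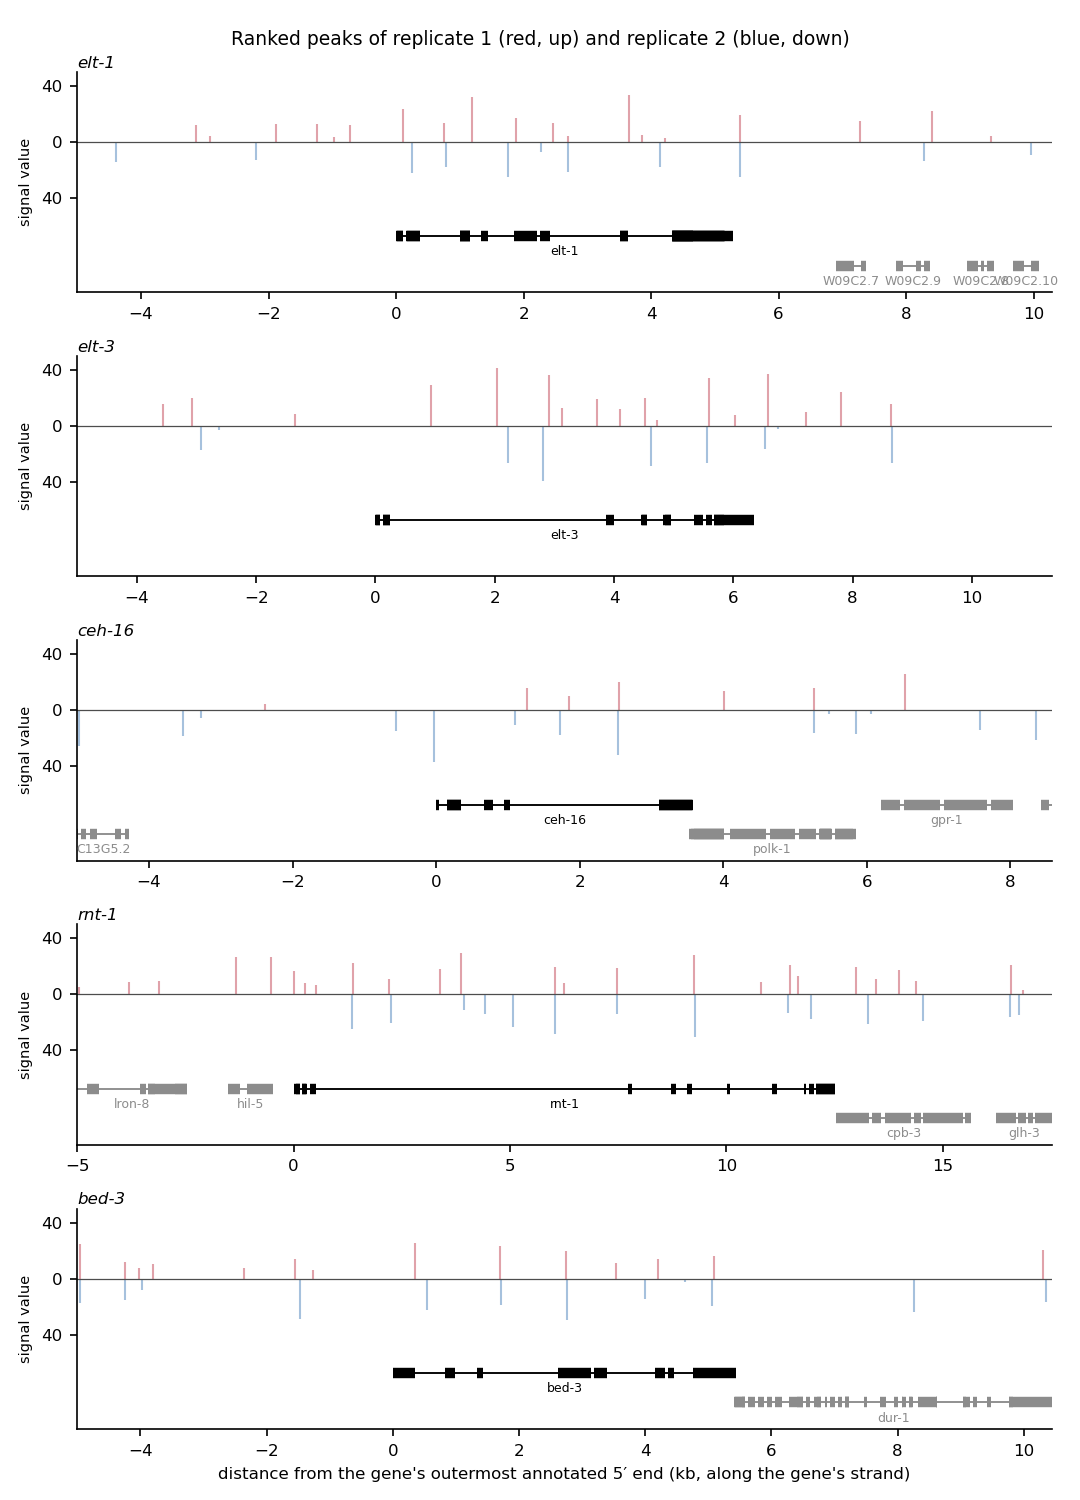
Ranked peaks around elt-1, elt-3, ceh-16, rnt-1 and bed-3 by distance in kb from the outermost 5′ end along the gene's strand, with the signal value of replicate 1 upward in red and of replicate 2 downward in blue; boxes are exons. No bar is thick because none was in a thresholded list, and the highest is that of elt-3 with 41.1 in replicate 1.

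Ranked by the highest signal in the gene and within 5000 bp, all 10 genes could be placed among the 19973. Their median percentile was 73.6 in the pooled ranked list, 66.5 in replicate 1 and 74.9 in replicate 2, where the median gene has 50. A longer window has more room for a high peak, and the percentiles were not adjusted for length. The median window was 15458 bp for the 10 genes and 12027 bp for all genes. blmp-1 was at percentile 98.0, lin-26 at 90.2 and skn-1 at 90.1. Below them came egl-18 at 79.0, elt-6 at 77.8 and elt-3 at 69.4, then bed-3 at 49.9, ceh-16 at 49.1, rnt-1 at 38.3 and elt-1 at 25.8. The density of ranked peaks had a median of 1.25 per kb for the 10 genes and 1.25 for all genes in the pooled ranked list, 1.33 and 1.25 in the conservative one, 1.10 and 1.03 in replicate 1, and 1.00 and 0.866 in replicate 2.

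The order of the 10 genes was partly shared by the replicates. blmp-1 was first in both, at percentile 97.6 in replicate 1 and 98.0 in replicate 2. skn-1 and lin-26 changed places, with 90.7 and 88.8 in replicate 1 and 88.5 and 90.7 in replicate 2, so the 2 do not differ beyond the replicates' spread. egl-18 followed in both at 78.2. Below it the places depended on the replicate: elt-6 and elt-3 were at 64.6 and 68.3 in replicate 1 and at 76.9 and 72.996 in replicate 2. ceh-16 moved from 17.0 to 69.8, elt-1 from 48.5 to 25.04, and bed-3 from 17.2 to 44.8. For those genes, whose peaks were low, the rank differed widely between the replicates.

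**Figure D4:**
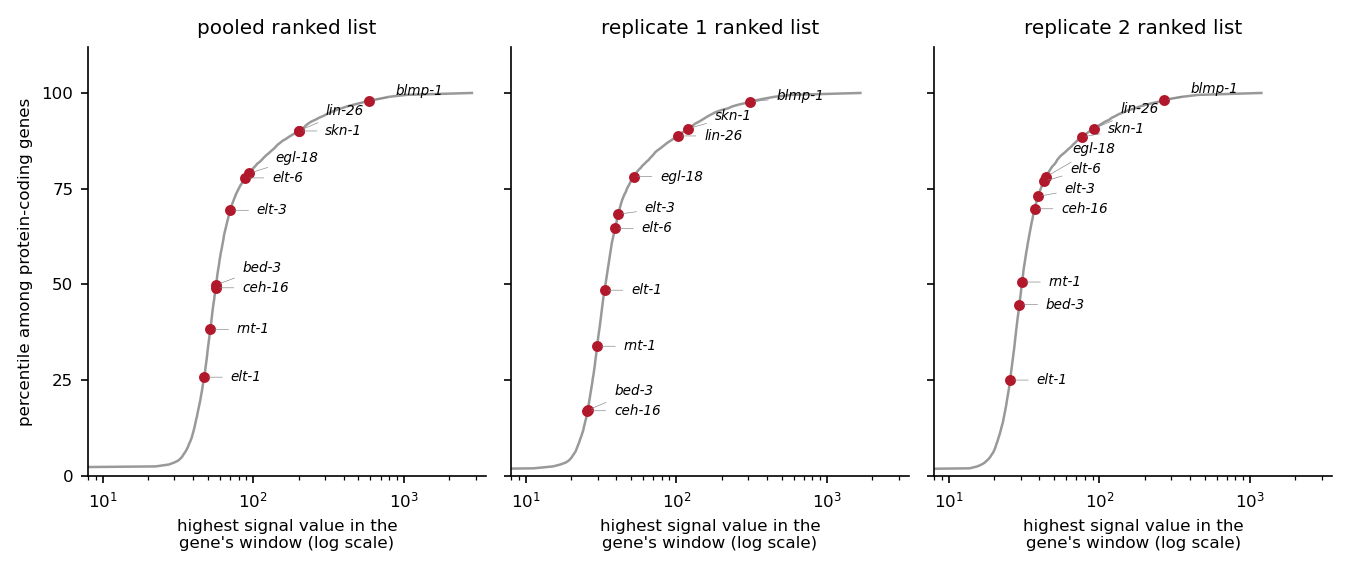
Highest signal value in the gene and within 5000 bp (x axis, log scale) against its percentile among 19973 protein-coding genes (y axis), for the pooled, replicate 1 and replicate 2 ranked lists. The grey curve is all genes and red points are the 10 genes; blmp-1, lin-26 and skn-1 lie at percentile 88.5 or higher in each panel, while ceh-16 moves from 17.0 to 69.8 between the replicates.

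Short motifs were counted within 100 bp of the 7 pooled summits and, as a description, beside all windows of the same length. The most frequent was GAGAGA, found at 6 of the 7 summits, against 35.2% of all pooled summits, 11.4% of windows 500 bp to either side and 13.9% of windows at annotated 5′ ends. GATAA was at 3 of the 7, against 34.0% of all pooled summits. It was also at 39.7% of windows 500 bp to either side and 42.2% of those at annotated 5′ ends. CACGTG was at 1 of the 7 and 11.1% of all pooled summits, and AGACGCAG at 1 of the 7 and 12.1%. The RUNX-type TGTGGT and the PRDM1-type AGTGAAAG were at none of the 7, and at 9.23% and 1.58% of all pooled summits. Copies of GAGAGA overlap one another in runs, and a match of letters is not a measured site.

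A Grainyhead-type site of any of the forms searched was at 1 of the 7 summits and at 11.7% of all pooled summits. The palindrome AACCGGTT was at none of the 7 and at 3.81% of all pooled summits, and AACTGGTT or its reverse complement AACCAGTT was at none and at 4.74%. ACCGGT was at 1 of the 7, that of blmp-1, and at 7.09%. Counted instead from the sites, the windows of lin-26, rnt-1 and bed-3 held an AACCGGTT each, 3 in all, and none lay within 100 bp of a thresholded summit, while all 3 lay within 100 bp of a ranked peak. Of the 990 palindromes of the genome, 9.60% were that close to a thresholded summit and 36.0% to a ranked peak. The lin-26 palindrome was 579 bp from the higher thresholded summit, and the ranked peak near it scored 9.34. ACCGGT outside the palindrome occurred 12 times in the windows, 1 of them within 100 bp of a thresholded summit and 4 of a ranked peak. Of the 6753 such sites of the genome, 1.27% and 28.6% were that close to a thresholded summit and to a ranked peak.

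Other genes of the epidermis and of neighbouring pathways, listed by name with earlier results known, put the 10 genes in context. Of 22 other regulators of epidermis, seam and developmental timing, 13 had a pooled summit within 5000 bp, with a median percentile of 77.5. The highest were those of grh-1 with 1122, the tagged gene itself, of the nuclear receptors nhr-25 with 256 and nhr-23 with 245, and of the timing genes lin-28 with 237 and lin-42 with 236. Of 16 genes of the Wnt pathway, which directs the asymmetry of seam divisions, 4 had one, namely the β-catenins sys-1 with 870 and wrm-1 with 170, the kinase lit-1 with 130, and the ligand mom-2 with 100.3. These compare with 5 of the 10 genes, whose highest was blmp-1, and with 25.1% of all protein-coding genes. The count of the Wnt genes was thus about the share of all genes. The median window was 15656 bp for the 22 regulators and 14676.5 bp for the Wnt genes, against 12027 bp over all genes.

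Further lists gave the following counts, to be read beside the 25.1% of all protein-coding genes. In the GATA family 4 of 11 had a summit. The family shares elt-1, elt-3, elt-6 and egl-18 with the 10 genes, and the others with a summit, beside elt-6 and egl-18, were end-3 with 84.7 and med-2 with 84.9, endomesodermal genes of the early embryo. Of 10 genes around SKN-1, 3 had a summit, the kinase sek-1 with 437, the SKN-1 inhibitor wdr-23 with 431 and gcs-1, a SKN-1 target in glutathione synthesis, with 118. Both sek-1 and wdr-23 thus scored higher than skn-1 itself. Of 11 epidermal fusion and structural genes 2 had a summit, vab-10 with 109 and col-10 with 100.3. Of 20 fate regulators of other tissues 2 had one, the neuronal unc-3 with 145 and the pharyngeal ceh-22 with 100.05.

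**Figure D5:**
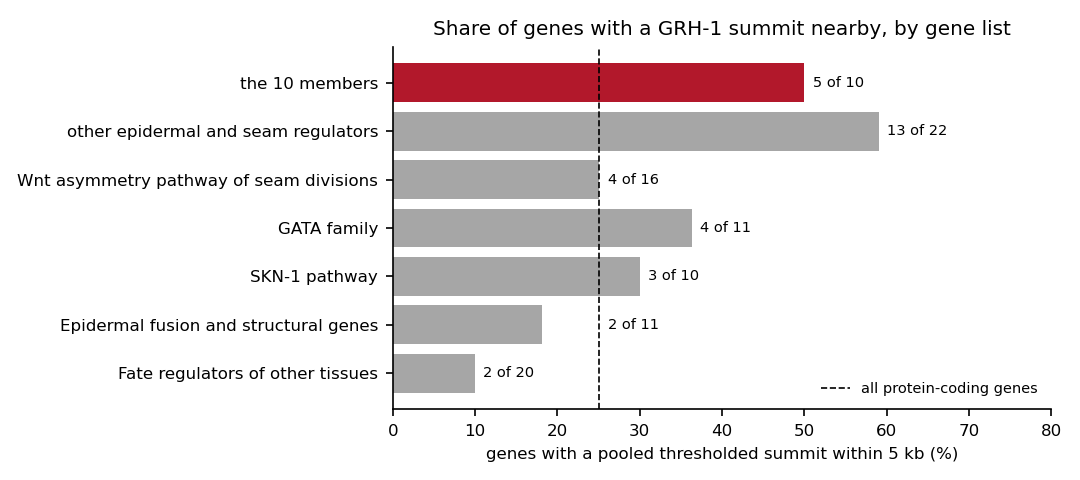
Share of genes with a pooled thresholded GRH-1 summit within 5000 bp (x axis, percent) for the 10 genes in red and for 6 other lists in grey, with counts beside the bars. The dashed line is the 25.1% of all protein-coding genes, elt-1, elt-3, elt-6 and egl-18 are counted both among the 10 genes and in the GATA family, and elt-2 and elt-7 both in that family and among the regulators of other tissues.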

How the data were processed

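ChIP-seq peak lists of 2 biological replicates of 1 group were used, on the build ce11 per the labels. The authors deposited, for each replicate and for the pooled replicates, a ranked list and a thresholded list, and also a conservative pooled list; the signal value per peak is the authors', and its scale is not stated. For each peak the deposited ranked lists give an irreproducible discovery rate (IDR) as −log10, and thresholded peaks had at least 2, that is an IDR of at most 0.01. Pooled lists are not independent of the replicates' lists. The aligner and peak caller were not given in the sources used here. Reads and control libraries were not analysed here. The replicates are separate biological replicates per the labels.

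Genes were taken from Ensembl release 115 and sequences from RefSeq WBcel235, whose chromosome lengths hold all peaks; all 10 genes matched by symbol. A summit belonged to a gene when it lay in it or within 5000 bp. Replicate values of a summit are those of the ranked peak within 100 bp. Motifs were searched on both strands within 100 bp of a summit. Python 3.11.15, numpy 2.4.6, pandas 2.3.3 and matplotlib 3.10.9 were used, and the steps were checked on simulated data. No test was made, since there was 1 group and the genes, gene lists and motifs were chosen with earlier results of these data known. The text names the 10 genes, the genes holding or nearest to their summits, and from each further list at most 5 genes with a pooled summit, by signal value; other ranked peaks were named by their signal. The counts were repeated with the conservative list, the list of either replicate, stricter and looser IDR limits, other windows, merged peaks and other overlap rules.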

Additional observations from a re-analysis of the deposited data

How the results depend on the processing

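No paired analysis was possible because there was 1 group and no comparison between groups. The 7 pooled summits became 4 with an IDR of at most 0.001, 13 with an IDR of at most 0.05, 12 with a window of 10000 bp and 4 with the gene body and promoter window only; in the replicates' own lists the count was 5 in each. The 5 genes with a summit became 3 with an IDR of at most 0.001, namely lin-26, blmp-1 and skn-1. With the gene body and promoter window they were also 3, but elt-6, egl-18 and skn-1, without blmp-1 and lin-26. A window of 2000 bp left 4, without lin-26. In a single replicate's list they were 3 to 4, without replicate 1 losing elt-6 and egl-18 and without replicate 2 losing elt-6. The 5 summits nearest to 1 of the 10 genes became 2 and 9 with the stricter and looser limits, and 4 in each replicate's own list. There were 4 summits whose peak overlapped thresholded peaks of both replicates. They became 2 with a window of 2000 bp and 1 with the gene body and promoter window. In a single replicate's list they were 3 to 4. With a reciprocal overlap of 50%, with summits within 100 bp or with merged peaks they were 3. The 4 include the lin-26 summit at position 7679770, whose peak overlaps that of its higher neighbour. That summit had no thresholded summit of either replicate within 100 bp. The 1 summit with a Grainyhead-type site became 2 with 10000 bp and 0 with the gene body and promoter window, and stayed 1 in each replicate's list. The alternatives admit fewer or more peaks or bases, and the reason why the replicates' lists differ was not tested. The looser limit added lin-26 and elt-3 peaks and a peak in egl-18 within 5000 bp of elt-6; elt-1, ceh-16, rnt-1 and bed-3 had 0 summits under each alternative run. Of 100 recomputed counts of single genes, 80 stayed within 1.5 times and 20 moved, 7 of them upward. The 80 include counts that were 0 and stayed 0, among them all those of elt-1, ceh-16, rnt-1 and bed-3. They therefore do not measure how steady the counts of genes with a summit are.

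With 2 replicates, unknown read numbers and whole larvae, the precision of a signal value cannot be stated, and a gene without a thresholded summit is not shown to be unbound.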
